A study of Mus musculus with 2 samples.

Results

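Differentially accessible regions (DARs) that lay in exons and untranslated regions (UTRs) were followed here in BMDMs, monocytes grown from bone marrow that give rise to osteoclasts. They were taken from the deposited table of all DARs as the rows whose annotation began with exon, 5' UTR or 3' UTR, at any distance from a transcription start site (TSS). This gave 371 of the 5650 DARs, of which 247 were annotated as exon, 54 as 5' UTR and 70 as 3' UTR. ATAC-seq was performed on cells of C57BL/6 mice in 2 groups, MR + vector and MR + iBRD9, each with a single library of 5000 cells. Both groups received M-CSF at 50 ng/ml together with RANKL at 100 ng/ml, and they differed in the 24 h treatment, vector or iBRD9, an inhibitor of the bromodomain of BRD9. By the study's definition, a gain DAR was more accessible and a loss DAR less accessible after BRD9 inhibition, by 0.5 or more on the log2 scale. The tables list changed regions alone, without counts, signal or fold changes per library, so no difference below has a replicate check, the depth behind a region is unknown and no p-value is given.

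Exons are the parts of a gene kept in the mature RNA, and UTRs are the exonic stretches before the start codon and after the stop codon of the coding sequence. In ATAC-seq the enzyme Tn5 inserts adapters into DNA that nucleosomes leave open, and most open chromatin lies at TSSs, in introns and between genes. BRD9 is a bromodomain subunit of the non-canonical BAF complex, a SWI/SNF remodeler that moves nucleosomes, and osteoclasts are the bone-resorbing cells of the monocyte lineage. The labelled cell type could not be checked from its own markers, since a table of changed regions shows no open region that stayed the same. Of 9 marker genes of the monocyte, macrophage and osteoclast lineage, 2 were the nearest gene of some DAR and 0 hosted an exonic or UTR DAR, whereas among 4 stromal markers Col1a1 and Cxcl12 each hosted a gain DAR. Of 4 neutrophil genes, 1 was the nearest gene of a DAR, and of 3 T cell, 3 B cell and 3 erythroid genes, 0 were.

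Many of these regions crossed a boundary between an exon and an intron, so the sequence at such boundaries is shown first. The following stretches of 30 bases are from GRCm39 and written in the direction of the gene. The 15 exonic bases are in capitals and the 15 intronic bases in lower case, for a transcript with that boundary. The Tlr2 and Polr1a regions were wholly exonic, so their lower-case bases belong to an exon of another transcript. The stretches were chosen because their genes belong to the gene lists described further on. The direction of each DAR is given in its name.
Smarcb1, end of exon 1, loss (chr10:75757122-75757151, minus strand): ATGATCGGCTCCGAGgtagcccgcggcgcg
Tlr2, end of a 5' UTR exon, loss (chr3:83748812-83748841, minus strand): CTGGAGGACTCCTAGgtaggtggatcggtc
Apaf1, end of a 5' UTR exon, loss (chr10:90918030-90918059, minus strand): GGTGCAAAGGCTTGGgtaagtttactgcct
Dapk1, start of exon 26, loss (chr13:60908434-60908463, plus strand): gtccccctctggcagATAAACATCATGCAG
Ptk2b, end of exon 21, gain (chr14:66406677-66406706, minus strand): TGTGTGCAGCCTCAGgtgagcataaggtgg
Tln2, start of exon 39, gain (chr9:67201205-67201234, minus strand): ttctgtcccttttagGGACAAAGCCCCAGG
Polr1a, end of an exon of the 3' UTR, gain (chr6:71957237-71957266, plus strand): GAAACACCAAAGCAAgtgagtaatcctgta
In each stretch the first intronic bases were gt or the last ones ag, the usual splice signals.

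A second set shows short motifs in the central 150 bp of a region, again from GRCm39, with the match in capitals and on the strand on which it read as spelled. The AP-1 site, TGANTCA with N for any base, is known for FOS and JUN factors and reads as the same pattern on both strands. It is shown for 2 gain and 2 loss regions among the 3 widest of each direction that held it.
Cep95, 3' UTR, gain (chr11:106710431-106710460, plus strand): ctctgctgtacTGATTCAcagaccacacgt
Sdk2, exon 2 of 2, gain (chr11:113832645-113832674, plus strand): caaaggggctcTGATTCAccagcgagcaaa
Gm5464, exon 1 of 1, loss (chr14:67106972-67107001, plus strand): aaagaggaaacTGAGTCAtggagaaacaga
Traf3ip2, 5' UTR, loss (chr10:39489128-39489157, plus strand): ttcttggcggtTGATTCActgccccacggg
The forkhead core with A, ATAAACA, is known for forkhead factors such as FOXP1. It is shown for a gain region and for the widest loss regions that held it, and the match in Dapk1 begins at the first base of exon 26, as in the boundary printed above.
Gnaq, 3' UTR, gain (chr19:16360795-16360824, plus strand): ggttgttgaagATAAACAagagggactgta
Chd9, exon 6 of 40, loss (chr8:91703851-91703880, minus strand): gagctaatcaagATAAACAtttgcctgagg
Trank1, exon 9 of 9, loss (chr9:111186769-111186798, plus strand): aggctcaaaggATAAACAaaaggaaagaaa
Dapk1, exon 26 of 27, loss (chr13:60908438-60908467, plus strand): ccctctggcagATAAACAtcatgcagagtg
A match is a description of the letters and not evidence that a factor was bound.

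Exonic and UTR DARs were more often gained than lost after BRD9 inhibition. Of the 371 regions, 226 were gain DARs and 145 were loss DARs, a gain share of 60.9% with a 95% Wilson interval of 55.9% to 65.7%. Among all DARs, 55.9% were gain DARs, and among the 5279 DARs outside exons and UTRs, 55.6% were (interval 54.3% to 56.9%). The lower end of the interval of the exonic and UTR DARs lay at the share of all DARs, and these intervals cover counting error only and say nothing of the spread between cultures. In bulk ATAC-seq, a region open in more cells and a region more open in each cell cannot be told apart. DARs that covered a TSS had a gain share of 56.1% (247 of 440), first-intron DARs of 52.6% (368 of 699) and later-intron DARs of 56.7% (707 of 1246).

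Each of the 3 classes held more gain than loss regions. In the 3' UTR, 45 regions were gain and 25 loss, a gain share of 64.3% (interval 52.6% to 74.5%). In the 5' UTR, 33 were gain and 21 loss, or 61.1% (interval 47.8% to 73.0%). In exons, 148 were gain and 99 loss, or 59.9% (interval 53.7% to 65.8%). All 3 intervals overlapped each other and held the share of all DARs, so the classes could not be told apart by direction at these numbers.

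Within the exon class, the place of the exon in its listed transcript was compared. First exons of transcripts with several exons held 22 gain and 19 loss regions (53.7%, interval 38.7% to 67.9%), and internal exons held 58 and 41 (58.6%, interval 48.7% to 67.8%). Last exons held 36 and 20 (64.3%, interval 51.2% to 75.5%), and transcripts with a single exon held 32 and 19 (62.7%, interval 49.0% to 74.7%). By number, exons 4 to 9 had the highest gain share, 68.0% of 50 regions (interval 54.2% to 79.2%), and exons numbered 10 or higher had 56.9% of 51 (interval 43.3% to 69.5%). All of these intervals included 55.9%, the share among all DARs, and no order by position in the transcript was apparent beyond counting error.

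**Figure D1:**
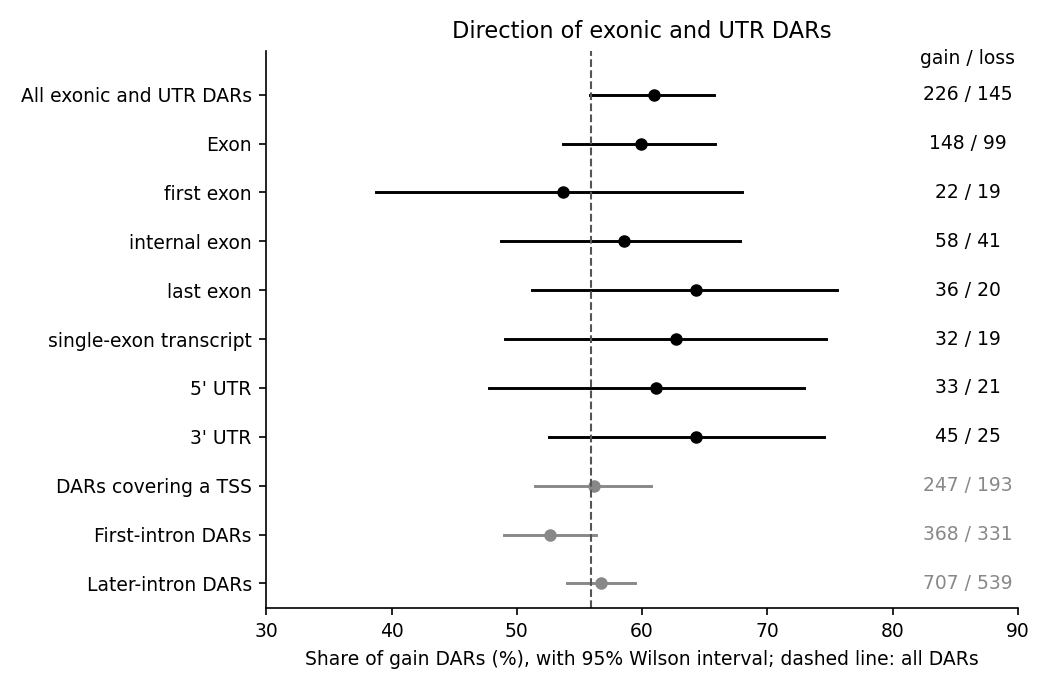
Share of gain DARs (%, horizontal axis) in exonic and UTR DARs by class and exon position (black) and in 3 other classes of DARs (grey), with 95% Wilson intervals as bars and the counts of gain and loss regions at the right. The dashed line is the 55.9% of all DARs, and each bar of a single exonic or UTR class crosses it.

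The exon number in the deposited annotation matched the gene models of GENCODE M39 in 244 of the 247 exon regions. The deposited annotation names no host for a UTR region, so the gene whose UTR of the same side overlapped most was taken, which was possible for 112 of the 124 UTR regions, and the listed nearest gene was taken for the other 12. The host differed from the listed nearest gene in 66 of the 371 regions. The 371 regions fell in 367 genes, 225 with a gain region and 145 with a loss region. A protein-coding host was found for 299 regions (80.6%), a lncRNA for 31 and a pseudogene of some kind for 24, while 14 lay in genes of the TEC type, which are models still to be tested by experiment. Protein-coding hosts held 185 gain and 114 loss regions (61.9%, interval 56.2% to 67.2%), and pseudogenes held 14 and 10. Pseudogenes are near copies of other genes, and how reads with several matching places were treated was not stated, so their regions are uncertain. Single-exon hosts were mostly not protein-coding, with 19 pseudogenes, 12 TEC models and 5 lncRNAs among 51 regions. Exons of 2 or more genes were touched by 38 regions, whose accessibility cannot be given to 1 gene.

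All 371 regions touched an annotated exon, but the part of a region that was exonic varied widely. It was the whole region in 235 cases (63.3%) and under 50% in 72 cases (19.4%). Of the 226 gain regions, 51 were under 50% exonic (22.6%, interval 17.6% to 28.4%), against 21 of the 145 loss regions (14.5%, interval 9.67% to 21.1%). Under 10% exonic were 12 gain regions and 1 loss region, among them the gain region in Gaa, of which 0.398% was exonic. Of the 99 regions in internal exons, which are short, 36 were under 50% exonic. Without regard to direction, the 3' UTR class had 7 of 70 and the 5' UTR class 5 of 54 regions under 50%. The regions that were wholly exonic had a gain share of 56.2% (132 of 235, interval 49.8% to 62.4%), close to that of all DARs, and those under 50% had 70.8% (51 of 72, interval 59.5% to 80.1%). Thus the gain share was lower where the whole region was exonic than where less than 50% of it was, although the intervals overlapped.

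**Figure D2:**
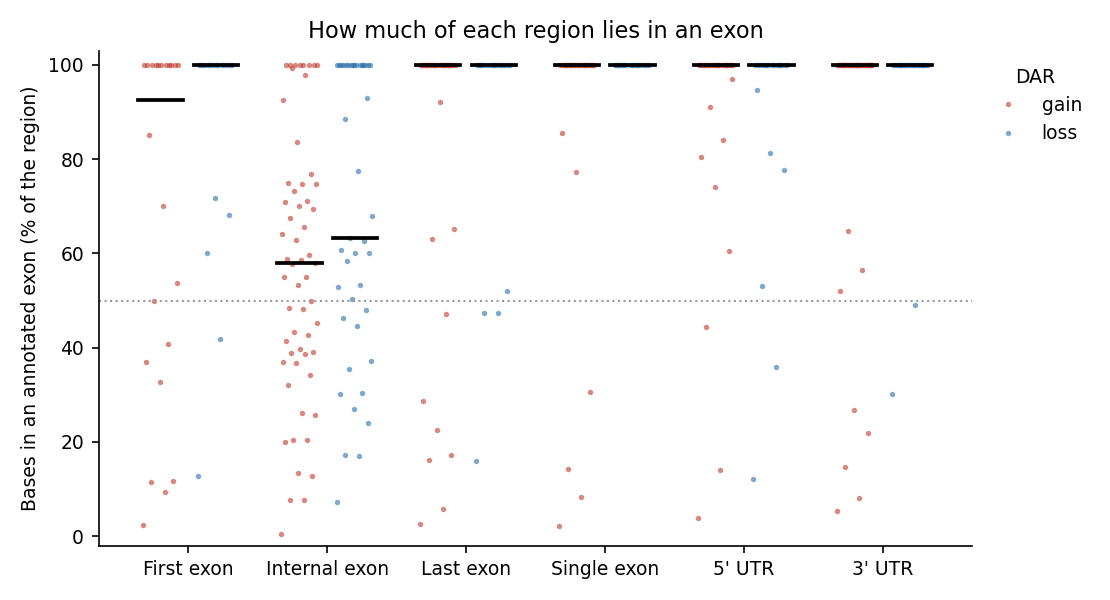
Percentage of the bases of each region that lie in an annotated exon (vertical axis), for gain (red) and loss (blue) regions by exon position or UTR class, with 1 point per region, black lines at the medians and a dotted line at 50%. Internal exons spread over the whole scale, whereas the medians of last exons, single exons and both UTR classes stand at 100%.

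Coding sequence was touched by 195 regions (120 gain and 75 loss), made up at least 50% of 108 and all of 47. The start codon of the host lay in 21 regions, of which 20 were in the 5' UTR class, 14 of these gain and 6 loss. The stop codon lay in 15 regions, 12 of them in the 3' UTR class, 9 gain and 3 loss. A splice junction of the host was contained in 174 regions (112 gain and 62 loss, 64.4%, interval 57.0% to 71.1%), and 185 regions had no junction of any gene (110 gain and 75 loss, 59.5%, interval 52.3% to 66.3%). In the 193 exon regions of transcripts with several exons, the exon struck had a median length of 291 bp and was the longest of its transcript in 66 cases (34.2%, interval 27.9% to 41.1%). This was so for 36 of 115 gain regions and 30 of 78 loss regions.

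The distance to the listed TSS set the classes apart. In the deposited tables the promoter class covered the TSS or lay up to 3 kb upstream of it, so exonic and UTR regions close to a TSS could only lie downstream, and 0 of them had a listed distance of 0. The 5' UTR regions had a median distance of 123 bp and 47 of 54 lay within 1 kb. The 3' UTR regions had a median distance of 5372 bp, with 8 of 70 within 1 kb. Exon regions lay between, with a median of 1561 bp and 104 of 247 within 1 kb. Regions over 3 kb away had a gain share of 63.0% (97 of 154, interval 55.1% to 70.2%) and those within 3 kb of 59.4% (129 of 217, interval 52.8% to 65.8%), so the direction did not separate near from far regions beyond counting error. Although no listed TSS was covered, 25 regions (11 gain and 14 loss) did cover the start of some transcript in GENCODE M39, among them the loss regions in Tlr2 and Smarcb1.

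Widths were alike in both directions. Gain regions ran from 150 to 437 bp with a median of 190 bp, and loss regions from 150 to 465 bp with a median of 183 bp. The smallest width, 150 bp, was shared by 76 regions. The widest gain region covered 437 bp at Zfp558, a C2H2 zinc finger gene, although 7.78% of it was exonic. Next came 428 bp in exon 19 of 20 of Ncam1, a neural cell adhesion molecule, and 416 bp over the 5' UTR and start codon of Rgs7bp, which encodes a binding protein of regulators of G protein signaling. A region of 408 bp held the stop codon of Gnb3, a G protein beta subunit, and 403 bp lay in Zfp770, another zinc finger gene. A region of 386 bp in exon 1 of Pom121, a nuclear pore protein, was wholly coding and had a GC content of 76.7%. The widest loss region covered 465 bp at exon 7 of 26 of Ptpro, a receptor tyrosine phosphatase, with 30.3% of its bases exonic. It was followed by 405 bp in the lncRNA Gm5464, 360 bp in the 5' UTR of Tlr2 and 351 bp in exon 4 of 4 of Col8a1, a short-chain collagen, all of them wholly exonic. The other widest regions were at Ralgps2 and Gm14344 among gains and at Gm20544, Gm47014, Foxk1 and Gm37855 among losses.

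Of 714 annotated genes on 12 lists, 13 hosted an exonic or UTR DAR, 7 with a gain and 6 with a loss region, against the 55.9% gain share of all DARs. Each list had 0 to 2 of its genes among the hosts, so no list could be described as moving in 1 direction. By the listed nearest gene instead of the host, 6 list genes had a gain and 5 a loss region.

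Among the 48 osteoclast genes, 1 hosted a region, a gain DAR of 181 bp in Fosl2 (chr5:32310499-32310679), which encodes an AP-1 subunit of the FOS family. It contained the stop codon, with 17.7% of its bases coding and 80.7% in the 3' UTR, and lay 6634 bp from the listed TSS. Among 58 genes of adhesion, cytoskeleton and cell fusion, 2 hosted gain regions. Ptk2b, the tyrosine kinase known as PYK2, had a region of 181 bp at exon 21 of 31 (chr14:66406573-66406753) with 34.3% of its bases coding and 978 bp from a listed TSS. Tln2, which links integrins to actin, had a region of 150 bp at exon 39 of 58 (chr9:67201133-67201282) with 58.0% coding. The body of Tln2 held 2 more DARs, both loss, at a promoter and in an intron.

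Further gain hosts came from the lipid, amine, lysosome and ribosome lists. Agpat3, an acyltransferase of phospholipid synthesis, had a region of 150 bp wholly inside its 5' UTR (chr10:78133799-78133948), with a gain DAR of the promoter class 111 bp away. Abat, which breaks down GABA, had 220 bp in exon 3 of 3 of a transcript without coding sequence there (chr16:8396252-8396471). Polr1a, the largest subunit of RNA polymerase I, had 194 bp in its 3' UTR (chr6:71957179-71957372). In Gaa, the lysosomal acid alpha-glucosidase, the gain region (chr11:119175425-119175675) touched exon 19 of 20 with 0.398% of its 251 bp and was otherwise intronic. The listed nearest genes of the last 2 regions were Gm26628 and Eif4a3.

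Loss hosts included 2 of 56 genes of NF-kB, Toll-like and cytokine receptor signaling. Tlr2, a receptor for bacterial lipoproteins, lost accessibility over 360 bp of its 5' UTR (chr3:83748678-83749037), 37 bp from the listed TSS, in sequence of 68.3% GC. Ticam1, which encodes the adaptor TRIF of Toll-like receptors, had a loss region of 224 bp wholly inside the coding sequence of exon 2 of 2 (chr17:56578759-56578982), 4804 bp from the TSS. Of 46 genes of apoptotic signaling, 2 hosted loss regions. In Apaf1, the scaffold of the apoptosome, 12.2% of a region of 229 bp was 5' UTR (chr10:90917844-90918072). In Dapk1, a death-associated kinase, 77.5% of a region of 182 bp was coding sequence of exon 26 of 27 (chr13:60908408-60908589). The Dapk1 body also held an intronic gain and an intronic loss DAR.

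The last list hosts were a SWI/SNF subunit and a forkhead factor. Of 61 SWI/SNF subunits and bromodomain proteins, Smarcb1 hosted a loss region of 191 bp at exon 1 of 9 (chr10:75756978-75757168), with 74.9% GC and a CpG ratio, observed over expected, of 1.06. SMARCB1 is a core subunit of canonical BAF and PBAF that the complex with BRD9 lacks. The region also touched an exon of another gene. Of 69 forkhead, AP-1, ETS and basic helix-loop-helix factors, Foxk1 hosted a loss region of 324 bp wholly in its 3' UTR (chr5:142445079-142445402), for which Ap5z1 was the listed nearest gene. Fosl2, the AP-1 subunit with a gain region, was counted among the osteoclast genes and not on this list. Of the 58 interferon and STAT genes and the 75 enzymes that modify histones or DNA, 0 hosted an exonic or UTR DAR. Over the 12 lists together, 13 of 714 genes did, so a 0 in either list is not read as a result. Genes named in the study's own text were not among the hosts or listed nearest genes.

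Gene families found by name were also split, and their members are named here after their values were seen. The share of all annotated genes that hosted such a region was not computed, so no family count is read as high or low. Of 2052 olfactory, vomeronasal and taste receptor genes, 6 hosted gain regions (Or6s1, Vmn1r237, Or9i16, Or13p10, Or6b13 and Or7d10) and 4 hosted loss regions (Or2t6, Or4c115, Or2bd2 and Or51ai2). These receptors belong to large families of similar sequence, so the placing of reads between them is uncertain. Of 44 collagens, Col10a1, Col1a1, Col27a1 and Col28a1 hosted gain regions, and Col8a1 and Col27a1 hosted loss regions. The gain region at exon 50 of 51 of Col1a1 was 59.7% coding, and that in Cxcl12, a stromal chemokine, lay wholly in the 3' UTR. Of 522 C2H2 zinc finger genes, 3 hosted gain regions (Zfp180, Zfp558 and Zfp770) and 0 loss regions. Of 384 solute carriers, 2 hosted gain and 3 loss regions, and of 71 protocadherins, Pcdhac2 hosted a gain and Pcdhgb4 a loss region. Among ribosomal protein genes, Rpl12 and Mrps35 hosted gain and Rps15a a loss region, and among dyneins, kinesins and myosins, Dnah5 and Myh13 hosted gain and Dnah10 a loss region. Of 139 voltage-gated and related channels, Kcna3 and Kcnk10 hosted gain regions, and of 113 histone genes H1f2 hosted a gain region in its 3' UTR.

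In 4 genes, 2 exonic or UTR DARs were found, and in 3 of them the directions were opposite. In Col27a1, a fibrillar collagen, exon 3 of 25 held a gain region of 199 bp that was wholly coding (chr4:63143062-63143260), and exon 1 of 39 of a shorter transcript held a loss region of 186 bp (chr4:63201803-63201988). The distance between them was 58543 bp. In Wdfy3, a scaffold of selective autophagy, a gain region lay in exon 2 of 2 of a short transcript (chr5:102083095-102083290) and a loss region touched exon 4 of 67 (chr5:102129016-102129291) with 17.0% of its bases. In Sdk2, a synaptic adhesion molecule, a gain region lay in exon 2 of 2 of a short transcript (chr11:113832613-113832840) and a loss region at exon 44 of 45 (chr11:113682078-113682306). Both regions of Ntng1, a netrin of the axon surface, were gain, 1 in the 3' UTR (chr3:109689638-109689860) and 1 in the 5' UTR (chr3:110051133-110051282), 361273 bp apart, with an intronic loss DAR between them.

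**Figure D3:**
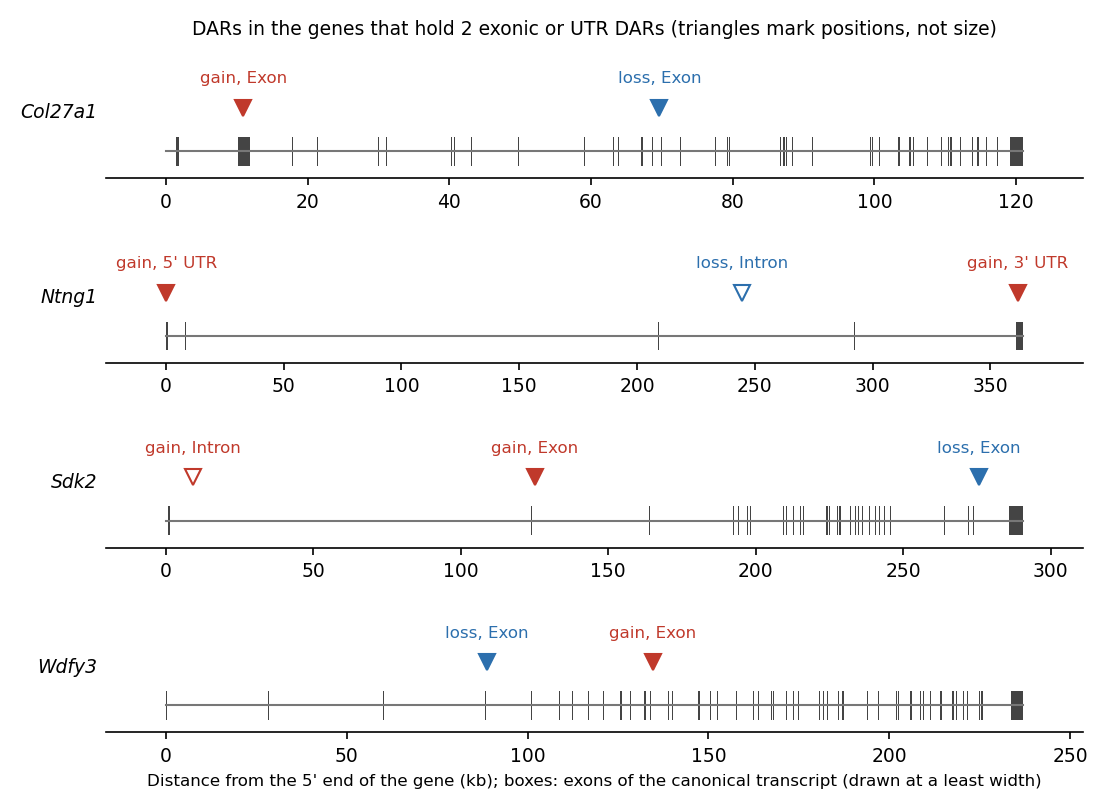
Position of DARs in Col27a1, Ntng1, Sdk2 and Wdfy3 by distance from the 5' end of the gene (kb, horizontal axis), with gain in red, loss in blue, filled triangles for exonic or UTR regions and open triangles for intronic ones. Boxes are exons of the canonical transcript alone, so a region in an exon of another transcript can stand between boxes, and opposite directions occur within 3 of the exonic and UTR pairs, those of Col27a1, Sdk2 and Wdfy3.

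A further DAR inside the body of the host was found for 60 of the 371 regions (16.2%), in 56 genes. Of the 82 pairs so formed, 44 had the same direction (53.7%, interval 42.9% to 64.0%). The share that unrelated DARs would give was not computed, so no agreement within genes is read from this. For Zfhx3, a homeobox factor whose exon 12 of 16 held a gain region and which was named after its values were seen, the body held 5 more DARs, 4 gain and 1 loss. Fgfr2, a fibroblast growth factor receptor likewise named after its values were seen, had a loss region in exon 1 of 4 of a listed transcript. It also had 5 more DARs within its GENCODE M39 span, 2 gain and 3 loss. Of these, an intronic gain DAR lay 45447 bp from the region and the others 583802 to 2550322 bp away. The others included an exonic region of another host and a promoter DAR, so the span can take in other genes. The Fgfr2 pairs are counted among the 82. Another DAR within 1 kb was found for 9 regions, each time of the promoter class, and all 9 are named here although not all fall under the rule for named genes. The direction was the same for Agpat3 (111 bp between the regions), Sec14l1 (187 bp), Glg1 (289 bp), Ssrp1 (500 bp) and H1f2 (795 bp), all gain. It was opposite for Psmd12, a proteasome subunit (77 bp), Rpl12, a ribosomal protein (123 bp), Gask1b (359 bp) and Gm5464 (555 bp). At Psmd12 and Rpl12 a loss DAR of the promoter class stood next to a gain DAR in exon 1, so neighbouring stretches of the same gene start were listed in opposite directions. The 18 close pairs without an exonic or UTR region had the same direction in 4 cases and opposite directions in 14.

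Exonic and UTR DARs had a higher median GC content than intronic DARs and a lower one than DARs at a TSS, which the 5' UTR and first exons came closest to. The median GC content was 54.4% over the 371 regions, against 49.0% in later-intron DARs, 49.3% in first-intron DARs and 63.1% in DARs covering a TSS. The 5' UTR regions had a median of 61.9% and first exons 61.6%. Internal exons had 55.2%, last exons 53.1%, single exons 53.0% and the 3' UTR 52.6%. Between gain and loss regions the medians were close, 54.1% and 55.3% over all of them, 61.5% and 62.3% in the 5' UTR, and 52.7% and 51.8% in the 3' UTR. Exons are known to be richer in GC than introns in the genome at large, and the part of this in the listed changes was not tested. The region was richer in GC than windows 1 kb to each side in 86.8% of exonic and UTR DARs, in 76.0% of later-intron DARs and in 94.8% of DARs covering a TSS. The CpG ratio, observed over expected, had a median of 0.660 in the 5' UTR, 0.615 in first exons and 0.199 in last exons, against 0.806 at a TSS and 0.152 in later introns.

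**Figure D4:**
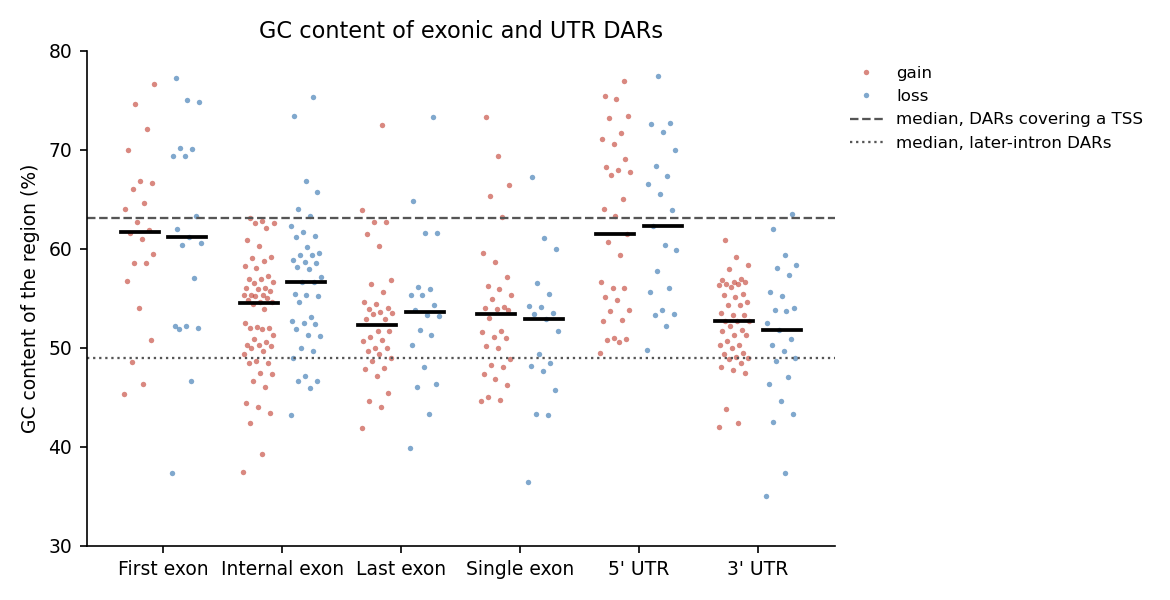
GC content (%, vertical axis) of each exonic or UTR region by exon position or UTR class, gain in red and loss in blue, with black lines at the medians. Dashed and dotted lines are the medians of DARs covering a TSS (63.1%) and of later-intron DARs (49.0%), and first exons and the 5' UTR have medians close to the dashed line.

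Of 10 short motifs, the AP-1 site was the one whose interval in exonic and UTR DARs did not overlap that in later-intron DARs. It was found in the central 150 bp of 20 of the 371 regions (5.39%, interval 3.52% to 8.18%), of 10.9% of later-intron DARs (interval 9.30% to 12.8%), of 9.87% of first-intron DARs (interval 7.87% to 12.3%) and of 8.51% of all DARs. The interval did overlap that of first-intron DARs. DARs covering a TSS had 3.64% (interval 2.25% to 5.82%), so a low share was not particular to exonic and UTR DARs. In equally long windows placed 1 kb from the exonic and UTR regions, the AP-1 site was found in 4.31%. The matches were 11 of 226 gain regions (4.87%) and 9 of 145 loss regions (6.21%), with overlapping intervals. They included the stretches printed above for Cep95, Sdk2, Gm5464 and Traf3ip2, and the 3' UTR loss region of Rps15a held 5 matches in a single window.

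The GC box of SP and KLF factors, GGGCGGGG, was found in 9 regions (2.43%, interval 1.28% to 4.55%), 4 of them among the 54 5' UTR regions (7.41%, interval 2.92% to 17.6%). It was found in 2.58% of all DARs, in 19.8% of DARs covering a TSS (interval 16.3% to 23.7%) and in 0.722% of later-intron DARs (interval 0.380% to 1.37%). The 5' UTR regions were thus close to DARs at a TSS in GC content, and their point share of GC boxes was lower. The forkhead core with A, ATAAACA, was found in 8 regions (2.16%, as in all DARs), 2 gain (0.885%, interval 0.243% to 3.17%) and 6 loss (4.14%, interval 1.91% to 8.73%). With G, GTAAACA, it was found in 6 regions (1.62%, against 1.49% of all DARs), 5 gain and 1 loss. The letters differ by 1 base and the splits ran in opposite directions, each with overlapping intervals.

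The remaining motifs had shares near those of all DARs. The ETS site GAGGAAGT was in 8 regions (2.16%, against 2.96%), with Apaf1 among the loss regions. The E-box CACGTG was in 9 (2.43%, against 2.37%), among them the gain region in exon 1 of Rpl12. The IRF repeat GAAANNGAA was in 12 (3.23%, against 3.35%), including Ptpro, and the STAT site TTCNNNGAA was in 10 (2.70%, against 3.24%). The RUNX site TGTGGTT was in 13 (3.50%, against 3.20%), and the CRE TGACGTCA was in 1, the gain region in exon 1 of Ldhd (0.270%, against 0.301%). Both strands were searched for each motif, and a site of 1 motif can overlap a site of another.

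**Figure D5:**
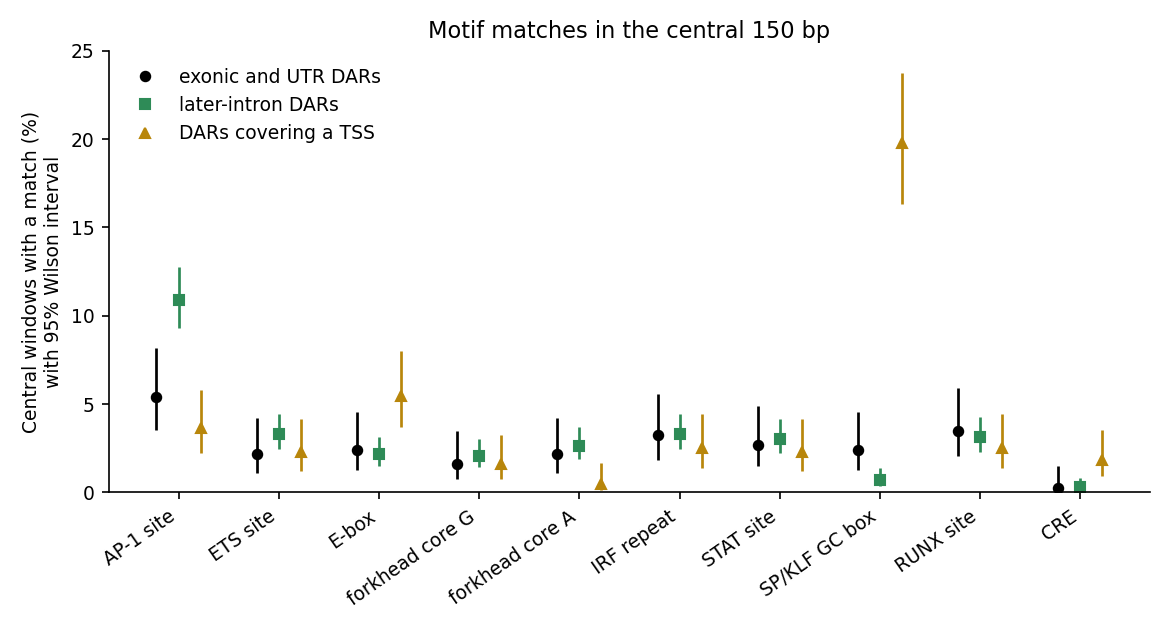
Share of central windows of 150 bp with at least 1 match (%, vertical axis) for 10 motifs, in exonic and UTR DARs (black circles), later-intron DARs (green squares) and DARs covering a TSS (brown triangles), with 95% Wilson intervals. The AP-1 interval of exonic and UTR DARs lies below that of later-intron DARs and overlaps that of DARs covering a TSS. The GC box of SP and KLF factors stands at 19.8% in DARs covering a TSS.

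By chromosome, the most regions lay on chromosomes 1 and 7, with 31 each. Their share of all DARs of a chromosome was highest on chromosome 11 (10.1%, 28 of 276) and lowest, among chromosomes with any, on chromosome 15 (3.38%, 7 of 207). Over all chromosomes it was 371 of 5650. These extremes were picked after the values were seen and have no interval, so no difference between chromosomes is read from them. Chromosome X had 24 DARs, of which 0 were exonic or in a UTR, which allows a share of up to 12.5% by a limit of 3 counts, used here in place of a Wilson interval.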

How the data were processed

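ATAC-seq data of BMDMs were used through 3 deposited tables of DARs. According to the methods and the submitters' processing notes, the authors trimmed reads with cutadapt 1.9.1, aligned them to GRCm39 with Bowtie2 2.2.6, removed duplicates and sampled both libraries to a common depth with Picard 1.126, called peaks with MACS3 on read pairs and kept regions of the merged peak set that changed by 0.5 or more on the log2 scale. Whether read ends were shifted for the Tn5 offset was not given in the sources used here, nor was the treatment of reads with several places or the annotation tool, whose columns have the ChIPseeker format. The values the authors deposited are positions, widths and signed distances in bp, and the depth per region is unknown. Columns of values per sample left unused numbered 0.

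Regions were placed in the gene models of GENCODE M39 on GRCm39, and the deposited chromosomes 20 and 21 were read as X and Y from their listed transcripts. Exon numbers and positions are those of the listed transcript. Overlaps, GC content, motifs and Wilson intervals were computed in Python 3.11.15 with pysam 0.24.0, scipy 1.17.1, pandas 2.3.3 and numpy 2.4.6, and figures with matplotlib 3.10.9, after the functions were tested on simulated data. Windows to each side were 150 bp long and 1 kb away. With 1 library per group, no test was made, and the spread between cultures is not known. The regions, gene lists, families and motifs were chosen with earlier results of these data known.

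Genes were named where the study's text names them, where they are on a list of symbols, where they held 2 exonic or UTR DARs, for the 8 widest regions of each direction, and for up to 3 regions per motif and direction, widest first. Some of these are not described here. Genes outside this rule are named as chosen after their values were seen. Alternatives covered the choice of members, the host gene, the minimum overlap and the windows.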

Additional observations from a re-analysis of the deposited data

How the results depend on the processing

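The gain share of all exonic and UTR DARs stayed inside its main interval under each alternative tried. It was 56.9% (interval 53.7% to 60.1%) when the regions were instead chosen by a middle base in an exon of GENCODE M39, which gave 519 gain and 393 loss regions. This interval held the 55.9% of all DARs and not the main 60.9%, so the excess of gain was smaller under that choice. For regions over 3 kb from the listed TSS the gain share was 63.0%, with 97 gain and 57 loss regions left. Merging neighbours within 1 kb or leaving out the smallest width moved the counts by less than 1.5 times. So did keeping the autosomes and chromosome X alone, counting each host once per direction and keeping protein-coding hosts. Leaving out pseudogene hosts (61.1%), an alternative chosen after seeing the data, also moved the counts by less than 1.5 times. The merging and the choice of chromosomes could not change the counts. No exonic or UTR region lay within 1 kb of another, and none lay outside the autosomes and chromosome X. The gain share of single-exon regions, 62.7%, moved to 76.9% of 13 regions with protein-coding hosts and to 100% of 2 regions over 3 kb away. Regions that touched coding sequence fell from 195 to 108 where at least 50% of the region had to be coding. The difference in median GC content to later-intron DARs was 5.48 percentage points and 6.00 in the central window. Over 3 kb from the listed TSS the gap was smaller, with medians of 52.7% in exonic and UTR DARs and 48.8% in later-intron DARs. Of the motif shares, that of the ETS site was 0.539% in the windows to each side, against 2.16%. The cause was not tested for any of these. First exons over 3 kb from the listed TSS, and start codons, stop codons and junctions at 50% of a region, gave no value. No paired analysis was possible because the vector and iBRD9 groups have a single library each and no test was made. With 1 library per condition, no statement here extends beyond these libraries, and the unknown depth leaves weak and strong changes alike in the lists.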
